A study of Mus musculus with 9 samples.

Results

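The effect of sitagliptin under high glucose was read from the gene counts of RAW264.7, a mouse macrophage cell line in wide use. The HG group received 35 mmol/l glucose over 6 h, and the HG-SIG group to the same glucose with sitagliptin phosphate for 6 h. Each group had 3 libraries, so the comparison used 6 of the 9 libraries of the series. The NC group, also 3 libraries, served as the untreated background, and no source used here gives its glucose concentration or incubation time. The dose of sitagliptin is likewise not stated, and no group received sitagliptin without added glucose or an osmotic control. Of 18631 Ensembl genes in the table, 12125 passed the count filter and are the genes described here. With 1186 unannotated loci they made up the 13311 features tested. The labels do not state that the replicates were separate cultures, so the p-values measure the spread between these libraries, which may be technical.

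Macrophages take up debris, lipoproteins and microbes through scavenger, Fc and Toll-like receptors, and answer with cytokines, chemokines and reactive oxygen. The growth factor receptor CSF1R and the transcription factor PU.1 maintain their identity, and RAW264.7 cells can also be driven to become bone-resorbing osteoclasts. Sitagliptin is an inhibitor of dipeptidyl peptidase 4, an enzyme that inactivates incretin hormones, and is taken for type 2 diabetes. Dpp4 itself was not analysed here.

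The defining macrophage genes were present in every library. The summed level of Csf1r, Adgre1, Cd68, Itgam, Lyz2, Spi1 and Mpeg1 was 9477 to 9953 CPM (counts relative to library size, corrected by TMM, the trimmed mean of M-values) in NC, 9261 to 9965 CPM in HG and 4853 to 4939.8 CPM in HG-SIG. Lyz2 and Csf1r made up most of this sum in HG and HG-SIG. Itgam fell by 0.32 on the log2 scale and was not called on log2(TPM + 1) (adjusted p = 0.16). The exons of Itgam overlap those of Gm49368 over 68.7% of their length, so its counts may be mixed. In bulk RNA, fewer cells of a type and less RNA per cell cannot be told apart. None of the listed T and B lymphocyte, epithelial or neutrophil markers had enough counts to be tested, and each of these lists summed to at most 0.487 CPM in any library. The 7 fibroblast markers in the table summed to 0.626 to 0.923 CPM in HG and 0.284 to 0.477 CPM in HG-SIG. Dendritic cell markers summed to 84.7 to 91.0 CPM in HG and 93.3 to 94.98 CPM in HG-SIG, with 3 of 9 tested. The part of these markers in the results was not tested. Library totals ran from 23285821 to 30752927 counts in the 6 libraries. On the third principal component HG replicate 3 lay away from the remaining HG libraries (-27.3 against 10.4 and 14.9, with 7.37% of the variance). Without it 3557 features rose and 3590 fell, against 3417 and 3572 with it.

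With the test used here more features differed between HG-SIG and HG than not, but with DESeq2, another test, only 6324 of 13311 passed. Of the 13311 features, 6989 passed the test at an adjusted p under 0.05 (52.5%), 3417 of them higher in HG-SIG (25.7%) and 3572 lower (26.8%). These shares are the background given for the counts of gene lists below. They do not account for expression level, with which the shares changed, and the lists were not matched for level. Most differences were small. The median absolute log2 fold change of called features was 0.33, and 706 features (5.30%) were called with a change over 1 on the log2 scale, 288 higher and 418 lower. The HG and HG-SIG libraries did not overlap for 58.7% of features. The median log2 fold change over all features was 0.01. Scaled by library size alone, without TMM, it moved up by 0.16, and 76.9% of calls were higher in place of 48.9%. The normalization factors were 0.961 to 0.977 in HG and 1.08 to 1.09 in HG-SIG, so a gene or list near 0 has a direction only under a stated scaling, and values below are with TMM unless another scaling is named.

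**Figure D1:**
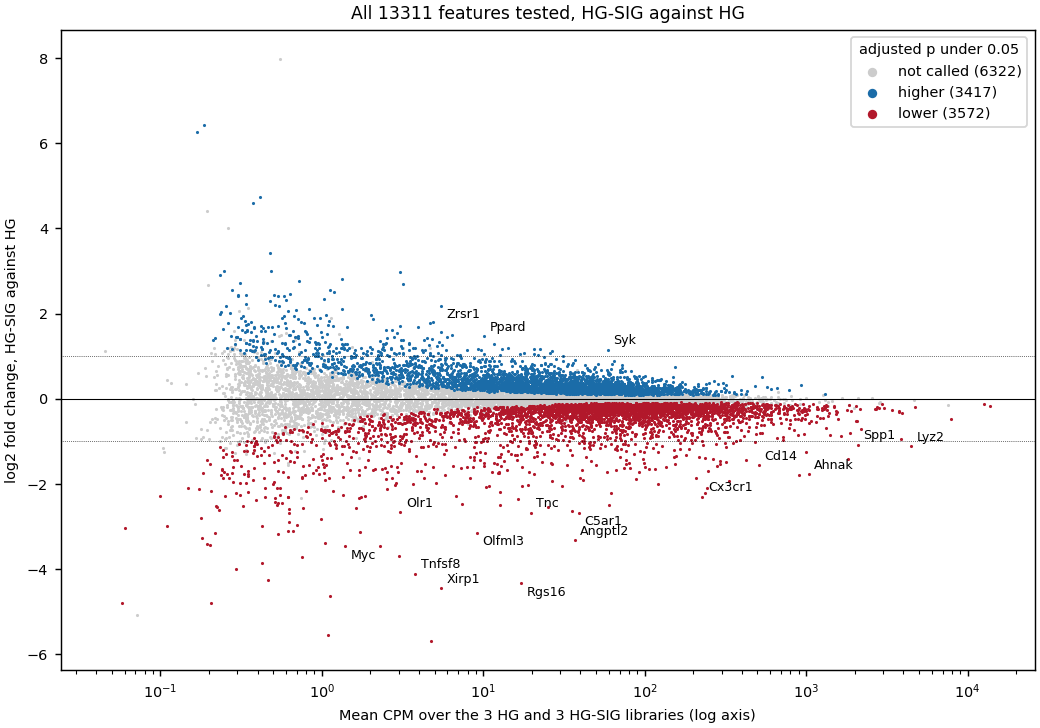
Log2 fold change of HG-SIG against HG for each of the 13311 features tested, against the mean CPM over the 6 libraries on a log axis. Blue points were called higher (3417), red points lower (3572) and grey points were not called, and dotted lines mark 1 and -1. The falls reach into the most abundant genes, such as Lyz2, Spp1 and Ahnak, while rises over 1 lie mostly at low levels.

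The direction of change went with expression level. The Ensembl genes were divided into 5 bins of equal size by mean CPM. In the lowest bin 20.5% rose and 12.6% fell, with a median log2 fold change of 0.16. In bins 2 and 3, counted from the lowest, 37.9% and 34.2% rose and 17.3% and 23.6% fell. In the highest bin, from 91.7 CPM upward, 13.3% rose and 53.7% fell, with a median of -0.13. Exon length went the other way. Among genes with the shortest total exon length (up to 2394 bases), 13.04% rose and 31.7% fell, and among the longest (7396 bases and more) 38.4% rose and 22.5% fell. Neither set of bins was recomputed with library size alone, which moved the median of all features up by 0.16. Zinc-finger genes named Zfp, Zkscan or Zscan, many of which encode DNA-binding repressors, were a family singled out after their values were seen. Of 340 tested, 147 rose (43.2%) and 30 fell (8.8%), with a median of 0.18. One of them, Zfp119a, had 11.5, 12.8 and 13.7 CPM in the HG libraries and 27.7, 29.9 and 27.9 CPM in the HG-SIG libraries (log2 fold change with its standard error 1.18 ± 0.07, adjusted p = 3.7e-08), while Zfp710 had 233, 231 and 231 CPM in the HG libraries and 122, 124 and 124 CPM in the HG-SIG libraries (-0.91 ± 0.03, adjusted p = 3.4e-10).

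**Figure D2:**
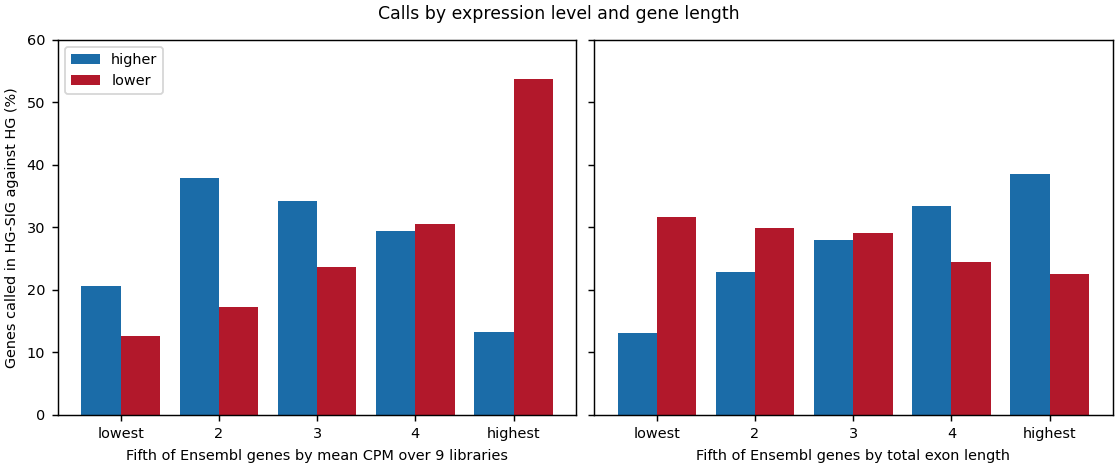
Share of Ensembl genes called higher (blue) and lower (red) in HG-SIG against HG, in 5 bins of mean CPM over the 9 libraries (left) and 5 bins of total exon length (right). With TMM scaling, the share called lower climbs from 12.6% to 53.7% with expression level, and the share called higher climbs from 13.04% to 38.4% with exon length.

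Genes were ranked by log2 fold change among those called, that averaged at least 2 on the log2 CPM scale and had no overlap between the HG and HG-SIG libraries. The deepest fall was that of Xirp1, which encodes an actin-binding repeat protein (ENSMUSG00000079243, chromosome 9, 120013755 to 120023598, minus strand, GRCm38). It stood at 16.3, 13.7 and 17.7 CPM in the NC libraries, 10.03, 10.9 and 10.6 CPM in HG and 0.631, 0.353 and 0.447 CPM in HG-SIG (log2 fold change -4.44 ± 0.17, adjusted p = 5.4e-10). Xirp1 lies inside an intron of the longest annotated transcript of Cx3cr1, on the same strand, and Cx3cr1 fell as well (-2.30). Csrnp1 (0.12, adjusted p = 0.18) and Gorasp1 (0.10, adjusted p = 0.17), which also lie within that span, did not pass the test. With library size alone both passed, at 0.29 (adjusted p = 0.0048) for Csrnp1 and 0.26 (adjusted p = 0.0025) for Gorasp1. The exons of Gorasp1 overlap those of Wdr48 over 32.1% of their length, so its counts may be mixed.

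Rgs16, a regulator that shortens G protein signals (ENSMUSG00000026475, chromosome 1, 153740349 to 153745468, plus strand), showed a stepwise order of the groups. Its levels were 186, 190.4 and 204 CPM in NC, 35.1, 32.4 and 31.01 CPM in HG and 1.93, 1.38 and 1.58 CPM in HG-SIG, a 20.1-fold fall with sitagliptin (-4.33 ± 0.10, adjusted p = 9.8e-12). Myc, the growth-promoting transcription factor, followed the same order, with 18.7, 17.4 and 20.7 CPM in NC, 2.82, 1.84 and 3.03 CPM in HG and 0.221, 0.321 and 0.149 CPM in HG-SIG (-3.46 ± 0.29, adjusted p = 7.8e-07). Its counts summed to 197 in HG and 22 in HG-SIG, a depth-scaled ratio of 11.2 with an exact 95% interval of 7.20 to 18.3. This and the later intervals of count ratios cover counting error only. As the rule of the ranking requires, the highest HG-SIG library of each of these genes lay below the lowest HG library.

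The other genes described among the lowest encode secreted and cell-surface proteins. Tnfsf8, the ligand of CD30, had 8.39, 6.59 and 6.51 CPM in the HG libraries and 0.347, 0.450 and 0.447 CPM in the HG-SIG libraries (-4.10 ± 0.19). The decoy receptor gene Il13ra2 had 5.78, 5.49 and 5.41 CPM in the HG libraries and 0.410, 0.385 and 0.477 CPM in the HG-SIG libraries (-3.70). The secreted factors Angptl2 (-3.31) and Olfml3 (-3.14) and the matrix protein gene Tnc, tenascin C (-2.67), fell as well. C5ar1, the receptor for the complement fragment C5a, stood at 95.4, 91.5 and 102 CPM in NC, 67.02, 65.4 and 69.98 CPM in HG and 10.004, 9.99 and 11.8 CPM in HG-SIG (-2.67 ± 0.07, adjusted p = 2.3e-11). The oxidized lipoprotein receptor gene Olr1 (-2.66) and the urokinase gene Plau (-2.62) fell to a like extent. By the rule of the ranking, no HG-SIG library of these genes reached the lowest HG library. Some genes below the level set for this ranking also had large log2 fold changes and are named after their values were seen. Rgs8, the neighbour of Rgs16 on chromosome 1, went from 2.14 ± 0.399 to 0.0417 ± 0.0186 CPM (SD, n = 3) and the lectin receptor gene Clec4n from 0.882 ± 0.191 to 0.0405 ± 0.0453 CPM. Sesn3, a sestrin gene, went up from 0.0232 ± 0.0402 to 0.804 ± 0.185 CPM. Summed counts in HG and HG-SIG were 163 and 4 for Rgs8, 67 and 4 for Clec4n and 2 and 77 for Sesn3. With 2 counts in NC as well, Sesn3 passed the count filter through HG-SIG alone. The lower mean of each of these genes lay below the level of 3 counts in a library, so the size of these differences is uncertain.

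The largest rises were smaller than the largest falls. Zrsr1, which encodes a spliceosome-associated protein, had 1.74, 2.28 and 1.89 CPM in the HG libraries and 9.15, 9.09 and 8.71 CPM in the HG-SIG libraries (2.19 ± 0.12, adjusted p = 1.4e-08), against 2.56, 2.97 and 3.21 CPM in NC. Slc1a4, a neutral amino acid transporter gene, stood at 11.2, 9.41 and 11.2 CPM in NC, 2.99, 3.37 and 3.17 CPM in HG and 7.98, 8.99 and 9.10 CPM in HG-SIG (1.45 ± 0.11, adjusted p = 2.4e-07), so that the HG libraries were the low ones. Ppard, a nuclear receptor for fatty acids, had 8.96, 8.46 and 7.63 CPM in NC, 5.29, 5.34 and 5.59 CPM in HG and 15.4, 14.5 and 14.9 CPM in HG-SIG (1.47 ± 0.08, adjusted p = 1.2e-08), the HG-SIG level being above both others. The cyclooxygenase gene Ptgs1 rose by 1.35 on the log2 scale, the chromatin reader gene L3mbtl3 by 1.78, Mob3b by 1.57, Hip1r by 1.43, Fam214a by 1.40 and Fam210b by 1.27. Glcci1 (1.39) and Rffl (1.30) were also among the highest, but their exons overlap those of another gene over 70.4% and 31.2% of their length, and the labels do not give a strand setting.

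**Figure D3:**
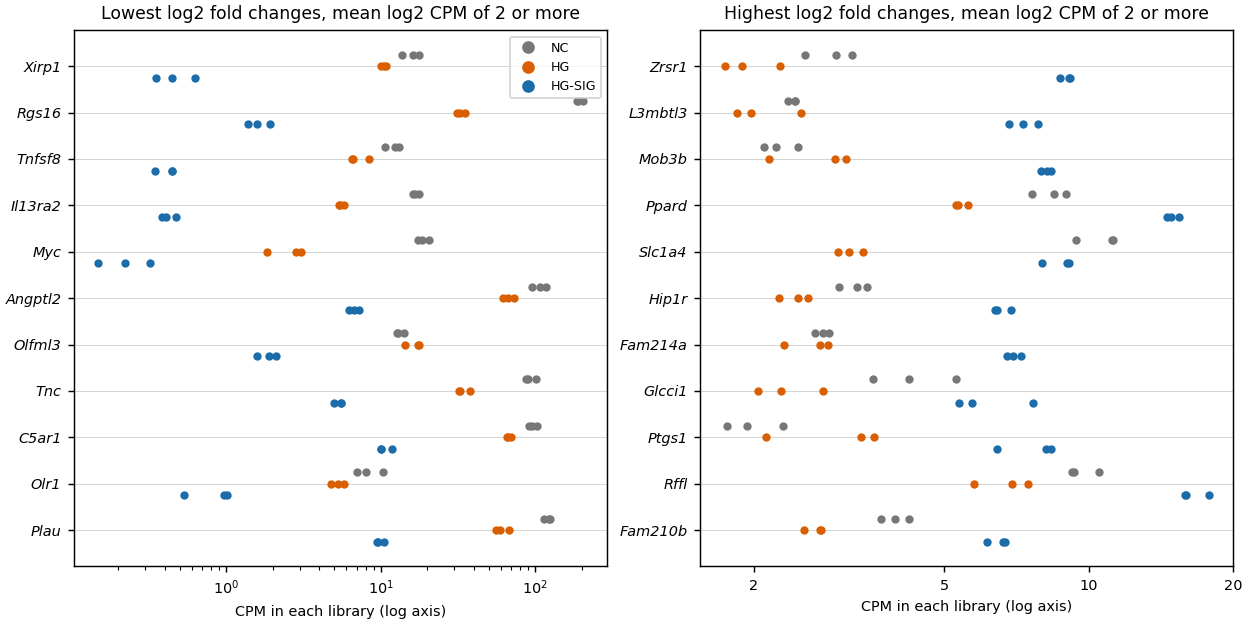
CPM in each of the 9 libraries on a log axis, for genes with the lowest (left) and highest (right) log2 fold changes of HG-SIG against HG among called genes that averaged at least 2 on the log2 CPM scale and had no overlap of libraries, 1 point per library. By that choice of genes, the HG-SIG points lie left of all HG points of the same gene in the left panel and right of them in the right panel. Rgs16, Myc and Il13ra2 also have NC points well above HG.

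Among genes with changes over 1, the most abundant that fell were Lyz2, Spp1, Itga4, Ahnak, Lpl and Ank. Lyz2, which encodes macrophage lysozyme, had 6311, 6373 and 5637 CPM in the HG libraries and 2757, 2888 and 2826 CPM in the HG-SIG libraries (-1.11 ± 0.05, adjusted p = 2.2e-09). Ahnak, a large membrane scaffold gene, had 1497, 1588 and 1744 CPM in the HG libraries and 475, 452 and 484 CPM in the HG-SIG libraries (-1.77 ± 0.06, adjusted p = 1.4e-10), with 1598, 1475 and 1609.6 CPM in NC. The pyrophosphate transporter gene Ank had 1314, 1454 and 1401 CPM in the HG libraries and 399, 394 and 423 CPM in the HG-SIG libraries (-1.78). Against NC, HG was lower for Spp1 (-1.19, adjusted p = 2.4e-10) and Ank (-0.25, adjusted p = 0.0014), higher for Itga4 (0.79, adjusted p = 1.3e-05) and not called for Lyz2 (-0.04, adjusted p = 0.57), Ahnak (0.04, adjusted p = 0.60) and Lpl (-0.08, adjusted p = 0.19). The most abundant that rose was Syk, the tyrosine kinase that carries signals from Fc receptors and C-type lectins (ENSMUSG00000021457, chromosome 13, 52583173 to 52648792, plus strand). It had 36.5, 35.8 and 36.2 CPM in NC, 35.2, 35.7 and 39.1 CPM in HG and 83.6, 79.1 and 82.3 CPM in HG-SIG (1.16 ± 0.04, adjusted p = 6.4e-10). The guanine nucleotide exchange factor gene Vav3 rose beside it, with 16.3, 15.5 and 18.3 CPM in the HG libraries and 35.3, 36.97 and 36.6 CPM in the HG-SIG libraries (1.13), as did the membrane scaffold Slc9a3r1 (1.17), the ciliary gene Ahi1 (1.08), Irgq (1.03) and the tRNA synthetase-like Tarsl2 (1.01).

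Macrophage identity genes were lower as a group. Of the listed genes 0 rose and 24 fell out of 30, and 6 were not called (median log2 fold change -0.73), against -1.32 for the scavenger receptors and 0.01 for all features. Cx3cr1, the fractalkine receptor gene, had 365, 353 and 386 CPM in NC, 372, 360.0 and 403 CPM in HG and 80.9, 68.3 and 81.4 CPM in HG-SIG, so that only HG-SIG stood apart. Mitf, a transcription factor of the lysosome and of osteoclasts, had 124, 126 and 118 CPM in the HG libraries and 39.5, 40.5 and 39.2 CPM in the HG-SIG libraries (-1.63 ± 0.04, adjusted p = 3.7e-11). The pore-forming protein gene Mpeg1 had 224, 236 and 231 CPM in the HG libraries and 103, 100.3 and 103 CPM in the HG-SIG libraries (-1.18). Csf1r, the receptor on which macrophage survival depends, had 2342, 2360.1 and 2441 CPM in the HG libraries and 1372, 1356 and 1395 CPM in the HG-SIG libraries (-0.79 ± 0.03, adjusted p = 2.1e-09) and was higher in HG than in NC (1934, 2010.2 and 2025 CPM). Spi1, which encodes PU.1, fell by 0.72 on the log2 scale, from 314 ± 19.3 to 191 ± 2.23 CPM (SD, n = 3). Adgre1, the gene of the F4/80 antigen, was at 48.5, 47.9 and 50.4 CPM in HG and 29.1, 29.3 and 31.1 CPM in HG-SIG. Cebpa (-0.07, adjusted p = 0.23) and Csf2rb (0.01, adjusted p = 0.90), a myeloid transcription factor and a growth factor receptor subunit, did not pass the test, although Cebpa was called higher on log2(TPM + 1) (0.14, adjusted p = 0.0074). The count was 1 rise and 23 falls with library size alone.

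Receptors for lipids and microbes followed. Of the scavenger receptors, 0 rose and 9 fell out of 11, and 2 were not called (median log2 fold change -1.32). Msr1, which takes up modified lipoproteins, had 380.4, 381 and 367 CPM in the HG libraries and 114, 121 and 115 CPM in the HG-SIG libraries (-1.69 ± 0.04, adjusted p = 9.8e-12), and the fatty acid and lipoprotein receptor gene Cd36 had 446, 413 and 438 CPM in the HG libraries and 144, 148 and 158 CPM in the HG-SIG libraries (-1.52 ± 0.06, adjusted p = 6.7e-10). NC levels were higher than HG for both, at 467, 451 and 471 CPM for Msr1 and 725, 619 and 708 CPM for Cd36. Colec12 (-1.02), Cd68 (-0.74) and the endocytic receptor gene Lrp1 (-0.97) fell too. Among Toll-like receptors and their accessory proteins, 4 rose and 9 fell out of 14, and 1 was not called (median log2 fold change -0.49). The lipopolysaccharide coreceptor gene Cd14 fell by 1.56 on the log2 scale, the RNA sensors Tlr7 and Tlr13 by 1.19 and 1.02, and Cd180 and its partner Ly86 by 0.99 and 0.90. Tlr3, a sensor of double-stranded RNA, rose from 7.03, 6.79 and 6.598 to 11.3, 11.5 and 10.9 CPM (0.72 ± 0.07, adjusted p = 5.3e-06), and so did Ly96 (0.60), the partner of TLR4, while Tlr4 itself fell (-0.51). The signalling adaptors behind these receptors moved less, and 5 rose and 3 fell out of 17, and 9 were not called (median log2 fold change 0.04), against 10 rises and 3 falls with library size alone. The kinase gene Irak2 had 37.6, 35.5 and 38.4 CPM in the HG libraries and 20.1, 18.9 and 19.1 CPM in the HG-SIG libraries (-0.94), whereas its inhibitory relative Irak3 rose (0.44).

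Genes of paired inhibitory and activating myeloid receptors were mostly lower. Of this mixed list 3 rose and 11 fell out of 16, and 2 were not called (median log2 fold change -0.93). The inhibitory and activating members were not counted apart. Lilr4b, an inhibitory immunoglobulin-like receptor gene, had 145, 130.04 and 151 CPM in NC, 19.6, 21.1 and 22.04 CPM in HG and 4.86, 4.53 and 4.29 CPM in HG-SIG (-2.19 ± 0.09, adjusted p = 1.0e-09). Cd300ld had 176, 178 and 169.5 CPM in the HG libraries and 55.0, 55.3 and 56.8 CPM in the HG-SIG libraries (-1.65), Clec4a2 fell by 1.77 and Clec12a by 1.16 on the log2 scale, and Trem2, a lipid-sensing receptor gene, by 0.72. Cd300lf (0.90) and Cd33 (0.36) rose. For Fc receptors and their signalling partners, 3 rose and 7 fell out of 14, and 4 were not called (median log2 fold change -0.09), which changed to 7 rises and 5 falls with library size alone. The inhibitory receptor Fcgr2b (-0.85), the Src-family kinase Fgr (-0.75) and the signalling chain Fcer1g (-0.61) fell, while Syk and Fcgr3 (0.47) rose.

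Genes of osteoclast differentiation fell. In that list 2 rose and 11 fell out of 16, and 3 were not called (median log2 fold change -0.93), against 4 rises and 10 falls with library size alone. Nfatc1, the master transcription factor of osteoclasts, had 499, 512 and 594 CPM in NC, 316, 326 and 331 CPM in HG and 90.7, 85.8 and 92.9 CPM in HG-SIG (-1.85 ± 0.06, adjusted p = 1.8e-10). Tnfrsf11a, the gene of the receptor RANK, had 201, 200.2 and 208 CPM in the HG libraries and 65.2, 65.9 and 68.8 CPM in the HG-SIG libraries (-1.61 ± 0.04, adjusted p = 2.3e-11). The acid-producing carbonic anhydrase gene Car2 was at 131, 131 and 127 CPM in NC, 226, 256 and 208 CPM in HG and 77.8, 86.7 and 76.1 CPM in HG-SIG, HG being the highest of the groups (-1.52). The acid phosphatase gene Acp5 (-1.49), the proton pump subunit gene Atp6v0d2 (-1.63), the collagen-cleaving protease gene Ctsk (-0.99) and the fusion gene Dcstamp (-0.93) fell. Ostm1, a chloride transporter subunit gene (0.71), and the podosome scaffold gene Sh3pxd2a (0.66) rose.

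Adhesion and matrix genes were lower. Of the integrins and their adaptors 1 rose and 11 fell out of 14, and 2 were not called (median log2 fold change -0.54). Itga4, the alpha 4 subunit, had 1495, 1484 and 1557 CPM in NC, 2206, 2799.8 and 2862 CPM in HG and 904, 1017 and 1049 CPM in HG-SIG (-1.41 ± 0.08, adjusted p = 4.0e-08), and the fibronectin receptor subunit gene Itga5 had 146, 138 and 171 CPM in the HG libraries and 82.1, 77.2 and 90.3 CPM in the HG-SIG libraries (-0.87). The talin gene Tln1 (-0.48) and the kindlin gene Fermt3 (-0.62), which activate integrins, fell, and the vinculin gene Vcl rose (0.35). Of matrix and protease genes, 1 rose and 9 fell out of 12, and 2 were not called (median log2 fold change -0.97). Spp1, which encodes osteopontin, had 6735, 6242 and 6398 CPM in NC, 2834, 2829 and 2833 CPM in HG and 1348, 1363 and 1309 CPM in HG-SIG (-1.08 ± 0.04, adjusted p = 2.4e-10). The metalloprotease gene Adam8 had 511, 530.5 and 540.4 CPM in the HG libraries and 136, 135 and 149 CPM in the HG-SIG libraries (-1.92). Mmp2 rose in this list at a low level, with 40 counts in HG and 100 in HG-SIG (ratio of HG-SIG over HG 1.996, interval 1.37 to 2.96), a call that was lost without HG replicate 1 (log2 fold change 0.78, adjusted p = 0.074).

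Chemokine genes fell without an exception among the called members. Of the chemokine ligands 0 rose and 8 fell out of 10, and 2 were not called (median log2 fold change -1.28). Ccl9 had 537, 518 and 531 CPM in NC, 236, 221 and 211 CPM in HG and 87.7, 93.01 and 83.8 CPM in HG-SIG (-1.34 ± 0.05, adjusted p = 4.2e-10). Cxcl16, a membrane-bound chemokine that also binds oxidized lipids, had 151, 149 and 139 CPM in the HG libraries and 51.2, 51.7 and 52.9 CPM in the HG-SIG libraries (-1.50 ± 0.04, adjusted p = 3.3e-11), and Cxcl14 had 105, 100.3 and 98.3 CPM in the HG libraries and 42.2, 37.9 and 38.1 CPM in the HG-SIG libraries (-1.36). Ccl3 (-1.07) and the interferon-induced Cxcl10 (-1.23) fell. The monocyte chemokine gene Ccl2 had 3.79, 4.39 and 4.31 CPM in the HG libraries and 3.44, 3.02 and 2.06 CPM in the HG-SIG libraries (-0.55 ± 0.18, adjusted p = 0.019), a call that was lost with library size alone (adjusted p = 0.072) and without HG replicate 2 (0.060) or HG-SIG replicate 3 (0.075). For the receptors of chemoattractants 2 rose and 8 fell out of 13, and 3 were not called (median log2 fold change -0.78), against 4 rises and 6 falls with library size alone. The complement receptor genes C3ar1 (-1.73) and C5ar2 (-1.06) and the platelet-activating factor receptor gene Ptafr (-1.59) fell beside C5ar1 and Cx3cr1. Cxcr3 rose (0.33, adjusted p = 0.018), and lost its call with DESeq2 (adjusted p = 0.090) and without HG replicate 1 (0.078), HG-SIG replicate 1 (0.054) or HG-SIG replicate 2 (0.050).

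Cytokines and polarization markers did not move in 1 direction. Of cytokines of the tumour necrosis factor and interleukin families, 3 rose and 7 fell out of 19, and 9 were not called (median log2 fold change -0.25), against 7 rises and 5 falls with library size alone. Tnf had 199.8, 191 and 189.8 CPM in NC, 42.5, 42.2 and 38.1 CPM in HG and 31.4, 36.7 and 33.6 CPM in HG-SIG (-0.27 ± 0.06, adjusted p = 0.0021), and with library size alone it did not pass the test (-0.11, adjusted p = 0.12). The receptor antagonist gene Il1rn had 26.2, 28.96 and 23.2 CPM in the HG libraries and 8.24, 9.06 and 8.59 CPM in the HG-SIG libraries (-1.60), and Ltb, lymphotoxin beta, fell by 0.93 on the log2 scale. Il15 (0.83) and Il16 (0.53) rose. Tgfb1 had 132.1, 136 and 137 CPM in the HG libraries and 122, 117 and 123 CPM in the HG-SIG libraries (-0.16 ± 0.03, adjusted p = 0.0017), and its log2 fold change was 0.00 with library size alone. Of the M1-type list, which stands for pro-inflammatory macrophages, 1 rose and 6 fell out of 11, and 4 were not called (median log2 fold change -0.27), and of the M2-type list, for alternatively activated ones, 3 rose and 9 fell out of 13, and 1 was not called (median log2 fold change -0.52). With library size alone the M1 count was 3 rises and 4 falls, and the M2 count 3 and 6.

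Ptgs2, the inducible cyclooxygenase gene and an M1-type marker, had 100.8, 91.6 and 114 CPM in NC, 52.9, 47.2 and 48.999 CPM in HG and 15.3, 12.5 and 8.74 CPM in HG-SIG (-2.04 ± 0.14, adjusted p = 1.4e-07). Irf5, a transcription factor of pro-inflammatory macrophages, fell (-0.74), and the costimulatory gene Cd80 rose from 50 to 130 counts (ratio of HG-SIG over HG 2.08, interval 1.49 to 2.94). Nos2, the inducible nitric oxide synthase gene, had 67 counts in NC and 9 in HG, against 0 counts with sitagliptin. The 95% counting interval of the ratio of HG over HG-SIG had its lower end at 2.47. Its call was lost on log2(TPM + 1) (adjusted p = 0.19). Of M2-type markers, the beta-glucan receptor gene Clec7a (-1.03) and the transcription factor genes Egr2 (-1.19) and Klf4 (-0.65) fell with Il1rn, while Irf4 (1.29) and Il4ra, the receptor for interleukin 4 (0.97), rose. For genes below the count filter only the summed counts are given. Il10 had 15 counts in HG and 3 in HG-SIG, a ratio of 6.26 with an interval of 1.77 to 33.7, and Cd86 had 8 and 28, a ratio of HG-SIG over HG of 2.79 with an interval of 1.24 to 7.10. Mrc1 had 2 and 6 counts, a ratio of HG-SIG over HG of 2.40 with an interval of 0.428 to 24.3. Il1b was tested because of its 52 counts in NC, had 2 and 6 counts as well, and did not pass the test (adjusted p = 0.45). Arg1 had 4 and 0 counts and Il6 0 and 1.

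Of genes around NF-kB, the inflammatory transcription factor, 6 rose and 9 fell out of 27, and 12 were not called (median log2 fold change 0.01). The shares of 22.2% and 33.3% lay near the background of 25.7% and 26.8%. Tnip3, an inhibitor of the pathway, had 165, 154 and 167 CPM in the HG libraries and 52.3, 52.1 and 49.7 CPM in the HG-SIG libraries (-1.66 ± 0.04, adjusted p = 3.3e-11), and the adaptor gene Traf1 fell by 1.14 on the log2 scale. Tnfaip2 had 82.8, 81.6 and 83.6 CPM in NC, 33.5, 34.6 and 35.1 CPM in HG and 55.1, 52.2 and 56.5 CPM in HG-SIG (0.67 ± 0.04, adjusted p = 5.9e-08), and the deubiquitinase gene Cyld rose (0.42). The inhibitor gene Nfkbia did not pass the test (0.01, adjusted p = 0.89) but did with library size alone (0.17, adjusted p = 0.0029). The count was 15 rises and 4 falls with library size alone, so the balance of this list rests on the scaling. In the inflammasome and pyroptosis list 8 rose and 4 fell out of 18, and 6 were not called (median log2 fold change 0.21). Nlrp3, the sensor gene, had 140.0, 143 and 144 CPM in NC, 71.3, 65.6 and 76.2 CPM in HG and 52.1, 47.1 and 50.2 CPM in HG-SIG (-0.51 ± 0.05, adjusted p = 6.6e-06), and the pore gene Gsdmd had 64.4, 61.9 and 61.2 CPM in the HG libraries and 31.6, 32.7 and 35.7 CPM in the HG-SIG libraries (-0.91). The NLRP3 partner gene Nek7 (0.31) and the channel gene Panx1 (0.61) rose, and Casp1 did not pass the test (-0.02, adjusted p = 0.68). With library size alone Casp1 was called higher (0.14, adjusted p = 0.025). Of the tumour necrosis factor receptor family 7 rose and 2 fell out of 15, and 6 were not called (median log2 fold change 0.42), a higher share of rises than the background of 25.7%. The death receptor gene Tnfrsf10b had 4.07, 4.39 and 4.35 CPM in the HG libraries and 8.68, 8.29 and 7.93 CPM in the HG-SIG libraries (0.96), and the decoy receptor genes Tnfrsf26 (0.89), Tnfrsf22 (0.55) and Tnfrsf23 (0.50) rose.

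Interferon-stimulated genes were mostly lower. Of these antiviral effectors 3 rose and 32 fell out of 44, and 9 were not called (median log2 fold change -0.40), and 5 rose and 23 fell with library size alone. Slfn2, which restrains proliferation of immune cells, had 139, 152 and 139 CPM in NC, 62.9, 65.2 and 59.7 CPM in HG and 16.3, 18.5 and 16.8 CPM in HG-SIG (-1.87 ± 0.06, adjusted p = 1.5e-10). Usp18, a protease that removes ISG15 and dampens interferon signals, had 22.98, 22.4 and 23.6 CPM in the HG libraries and 9.91, 8.19 and 9.43 CPM in the HG-SIG libraries (-1.32). Oasl1 fell by 0.93 and Ifi44 by 0.90 on the log2 scale. Ifit2 (0.69), Gbp7 (0.98) and the RNA sensor gene Ifih1 (0.23) were the 3 that rose, the call of Ifih1 being lost without HG replicate 2 (0.16, adjusted p = 0.085). The factors above these genes were mixed, with 11 and 6 of 25 (median 0.14) rising and falling among interferon regulatory factors and their signalling partners, against 17 and 5 with library size alone. Irf8 had 46.8, 45.2 and 42.5 CPM in the HG libraries and 26.004, 22.6 and 24.4 CPM in the HG-SIG libraries (-0.88) and Irf7 fell by 0.39, whereas Jak2 had 35.2, 37.001 and 37.3 CPM in the HG libraries and 60.02, 59.7 and 64.2 CPM in the HG-SIG libraries (0.75 ± 0.05, adjusted p = 5.7e-08) and Pias3 rose by 0.79. For class I antigen presentation 2 rose and 11 fell out of 19, and 6 were not called (median log2 fold change -0.21), against 6 rises and 7 falls with library size alone. The peptide transporter genes Tap1 (0.24) and Tap2 (0.22) rose, while the class I genes H2-T23 (-0.80) and H2-M3 (-0.93) fell. The call of Tap1 was lost without HG replicate 2 (adjusted p = 0.066) and without HG-SIG replicate 1 (0.068) or 3 (0.062).

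Immediate-early genes fell more often than they rose: 2 rose and 16 fell out of 29, and 11 were not called (median log2 fold change -0.30), against 8 rises and 13 falls with library size alone. Junb had 241, 250.3 and 261 CPM in NC, 142, 139 and 139.9 CPM in HG and 92.0, 92.2 and 93.9 CPM in HG-SIG (-0.60 ± 0.04, adjusted p = 4.8e-08), and Fosl2 fell by 0.67 on the log2 scale. Egr1 went the other way, with 51.9, 58.3 and 46.6 CPM in NC, 26.7, 27.7 and 17.4 CPM in HG and 48.3, 43.4 and 36.3 CPM in HG-SIG (0.82 ± 0.15, adjusted p = 0.00046). Btg2, an antiproliferative gene, had 13.1, 14.6 and 12.7 CPM in the HG libraries and 28.4, 30.5 and 25.1 CPM in the HG-SIG libraries (1.05 ± 0.09, adjusted p = 6.2e-07). Of feedback regulators of the kinase ERK 5 rose and 6 fell out of 19, and 8 were not called (median log2 fold change -0.07), against 7 rises and 5 falls with library size alone. The shares of 26.3% and 31.6% lay near the background of 25.7% and 26.8%. The ERK phosphatase gene Dusp4 had 75.6, 77.1 and 81.6 CPM in the HG libraries and 37.9, 33.8 and 37.1 CPM in the HG-SIG libraries (-1.11), while its relative Dusp6 (0.69) and the transcription factor gene Etv5 (0.29) rose. In the list of G protein regulators and G protein-coupled receptors 2 rose and 15 fell out of 20, and 3 were not called (median log2 fold change -0.51). Gpr183, which guides cells along oxysterol gradients, had 104, 98.0 and 101.3 CPM in the HG libraries and 25.6, 19.2 and 21.3 CPM in the HG-SIG libraries (-2.20 ± 0.08, adjusted p = 2.5e-10), the nucleotide receptor gene P2ry6 fell (-0.80) and the proton-sensing receptor gene Gpr65 had 6.93, 7.10 and 7.43 CPM in the HG libraries and 13.6, 13.5 and 12.7 CPM in the HG-SIG libraries (0.89). Rgs12 rose from 14 to 123 counts, a ratio of HG-SIG over HG of 7.02 with an interval of 4.03 to 13.2. With 28 counts in NC, Rgs12 may have passed the count filter through HG-SIG alone.

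The network of MYC held opposite movements. Of its genes 4 rose and 4 fell out of 12, and 4 were not called (median log2 fold change 0.04), against 7 rises and 3 falls with library size alone. Each share was 33.3%, beside the background of 25.7% and 26.8%. Beside the fall of Myc, its antagonists Mxd4 and Mxd1 rose, Mxd4 from 11.002, 11.9 and 11.5 to 24.7, 24.3 and 23.5 CPM (1.08 ± 0.06, adjusted p = 1.4e-08) and Mxd1 from 4.70, 5.10 and 4.57 to 9.09, 9.47 and 10.2 CPM (1.00). Another antagonist gene, Mnt, fell (-0.55). Cyclin D1, encoded by Ccnd1, had 659, 614 and 648 CPM in NC, 424, 409 and 444 CPM in HG and 233, 218 and 235 CPM in HG-SIG (-0.90 ± 0.05, adjusted p = 7.0e-09), and the kinase gene Cdk6 fell by 0.50 on the log2 scale. The retinoblastoma gene Rb1 (0.65) and its relative Rbl2 (0.44), which hold cells out of the cycle, rose. In this list of G1 regulators 6 rose and 8 fell out of 19, and 5 were not called (median log2 fold change -0.01), against 10 rises and 5 falls with library size alone.

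Cholesterol synthesis genes were lower. In the list of synthesis, sensing and uptake genes 2 rose and 21 fell out of 26, and 3 were not called (median log2 fold change -0.36), and 3 rose and 16 fell with library size alone. Insig1, which retains the SREBP factors in the endoplasmic reticulum when sterols suffice (ENSMUSG00000045294, chromosome 5, 28071363 to 28078662, plus strand), had 67.1, 68.5 and 64.1 CPM in NC, 89.6, 91.9 and 89.3 CPM in HG and 49.01, 51.9 and 50.9 CPM in HG-SIG (-0.84 ± 0.04, adjusted p = 3.7e-09). HG was the highest group. The same order held for the synthesis genes Fdft1 (-0.80), Cyp51 (-0.60) and Hmgcs1 (-0.58), while Msmo1 (-0.71) had 132.1, 124 and 131 CPM in NC and 129, 131.8 and 116 CPM in HG. The transcription factor gene Srebf2 fell by 0.32 on the log2 scale. Insig2 (0.31) and Scap (0.18) were the called members that rose. The call of Scap was lost without HG replicate 1 (adjusted p = 0.15) or 2 (0.083) and without HG-SIG replicate 1 (0.081) or 3 (0.12). The promoter of Hmgcs1 holds the sterol regulatory core TCACCCCAC, which was searched on both strands and found in 0.7% of promoters of all tested genes and in 1 of 19 promoters of this list (bases from RefSeq, GRCm38.p6, core in capitals):
Hmgcs1, chr13:119690204-119690232, plus strand: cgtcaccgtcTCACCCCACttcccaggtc

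Other lipid lists differed in direction. Of fatty acid synthesis and desaturation genes 2 rose and 13 fell out of 21, and 6 were not called (median log2 fold change -0.21), against 5 rises and 7 falls with library size alone. The desaturase genes Fads1 and Fads2, which make polyunsaturated fatty acids, fell by 0.93 and 0.77 on the log2 scale, Fads1 with 381, 365 and 388 CPM in the HG libraries and 196, 198 and 202 CPM in the HG-SIG libraries (adjusted p = 5.3e-10). Scd2 fell (-0.45), while Acss2, which makes acetyl-CoA from acetate, had 11.3, 11.1 and 11.7 CPM in the HG libraries and 17.5, 16.6 and 15.8 CPM in the HG-SIG libraries (0.55). Among LXR and cholesterol efflux genes 3 rose and 11 fell out of 19, and 5 were not called (median log2 fold change -0.27). The lipoprotein lipase gene Lpl had 1531, 1402 and 1515 CPM in NC, 1419, 1342 and 1443 CPM in HG and 581, 574 and 605 CPM in HG-SIG (-1.26 ± 0.04, adjusted p = 2.9e-10), the lysosomal lipase gene Lipa fell by 0.47 and the cholesterol transporter gene Npc1 rose by 0.34. Of lipid droplet genes 5 rose and 7 fell out of 19, and 7 were not called (median log2 fold change -0.10), against 8 rises and 3 falls with library size alone, with the droplet coat gene Plin2 falling (-0.43) and the acyltransferase gene Gpam rising (0.34). Fatty acid oxidation genes rose more often: 9 rose and 2 fell out of 25, and 14 were not called (median log2 fold change 0.01), against 17 rises and 1 fall with library size alone. The electron transfer gene Etfdh had 69.2, 71.6 and 66.3 CPM in the HG libraries and 92.4, 91.9 and 87.2 CPM in the HG-SIG libraries (0.39), and Cpt1a, which admits fatty acids to the mitochondrion, had 46.3, 47.1 and 50.04 CPM in NC, 63.05, 59.95 and 63.3 CPM in HG and 75.4, 73.1 and 73.4 CPM in HG-SIG (0.25 ± 0.04, adjusted p = 0.00022). Of genes of prostaglandin and leukotriene synthesis 4 rose and 8 fell out of 16, and 4 were not called (median log2 fold change -0.22). The phospholipase gene Pla2g4a (-0.57), the lipoxygenase gene Alox5 (-0.84) and the prostaglandin-inactivating Hpgd (-2.01) fell with Ptgs2, while Ptgs1 and the reductase gene Ptgr1 (0.77) rose.

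Genes that fold proteins in the endoplasmic reticulum (ER) fell together. Of the chaperones and folding enzymes 0 rose and 25 fell out of 27, and 2 were not called (median log2 fold change -0.42), and 2 rose and 21 fell with library size alone. Hspa5, the gene of the central ER chaperone BiP (ENSMUSG00000026864, chromosome 2, 34771970 to 34777547, plus strand), had 1636, 1684 and 1675 CPM in NC, 1905, 1764 and 1769.7 CPM in HG and 1013, 1020.4 and 1003 CPM in HG-SIG (-0.84 ± 0.04, adjusted p = 2.5e-09). HG lay slightly above NC (0.12, adjusted p = 0.026), and HG-SIG was the lowest group. Manf, a secreted folding factor gene, had 273, 248 and 243 CPM in the HG libraries and 133, 132.2 and 126 CPM in the HG-SIG libraries (-0.96 ± 0.05, adjusted p = 6.5e-09), and the cochaperone gene Sdf2l1 had 95.8, 92.4 and 88.9 CPM in the HG libraries and 50.7, 46.9 and 48.1 CPM in the HG-SIG libraries (-0.93). Hsp90b1 (-0.47), Pdia6 (-0.51), Pdia3 (-0.38) and the calreticulin gene Calr (-0.45) fell less. Ero1l, the oxidase gene that serves disulfide formation, was among the 2 that did not pass the test (0.10, adjusted p = 0.20), and Pdia5 was the other (-0.00, adjusted p = 0.98). These were the 2 called higher with library size alone, at 0.26 (adjusted p = 0.0042) for Ero1l and 0.16 (adjusted p = 0.038) for Pdia5, and Ero1l also passed with the replicate number as a block (0.10, adjusted p = 0.041).

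The regulators of this response did not move as a block. In the list of sensors and ER-associated degradation genes 4 rose and 11 fell out of 23, and 8 were not called (median log2 fold change -0.03), against 12 rises and 6 falls with library size alone. Xbp1, the transcription factor gene whose spliced product drives folding and degradation genes (ENSMUSG00000020484, chromosome 11, 5520659 to 5525893, plus strand), had 213, 215 and 213 CPM in NC, 262, 260.1 and 272 CPM in HG and 129, 134 and 126 CPM in HG-SIG (-1.03 ± 0.04, adjusted p = 2.5e-10). Gene counts do not separate its spliced form. Herpud1 had 64.7, 59.8 and 63.8 CPM in the HG libraries and 29.1, 28.7 and 30.4 CPM in the HG-SIG libraries (-1.09 ± 0.05, adjusted p = 1.6e-09), and the degradation factor gene Edem1 (-0.76), the sensor gene Atf6 (-0.45) and Creb3l2 (-0.75) fell. Ern1, which encodes the sensor IRE1 that splices Xbp1, rose from 13.4, 13.3 and 14.999 to 19.98, 19.7 and 21.98 CPM (0.57 ± 0.08, adjusted p = 5.6e-05). Of genes of translocation, signal cleavage and glycosylation 1 rose and 28 fell out of 44, and 15 were not called (median log2 fold change -0.14), but with library size alone 11 rose and 9 fell.

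**Figure D4:**
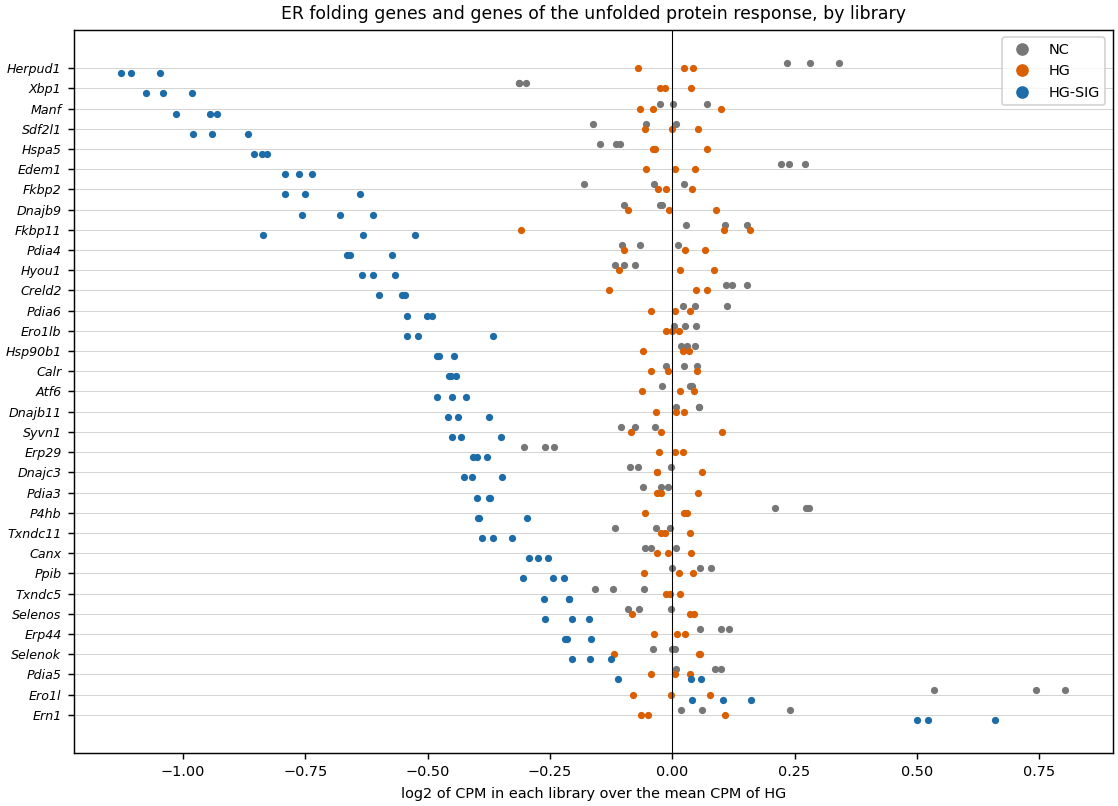
Log2 of the CPM in each library over the mean CPM of the HG group, for 27 ER folding genes and 6 genes of the unfolded protein response, 1 point per library. The HG-SIG points lie to the left of all HG points for 30 of the 33 genes, and to the right for Ern1, while NC points lie on either side of HG.

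Some promoters of these genes hold a known regulatory sequence. The ER stress response element, which ATF6 and XBP1 bind with the factor NF-Y, is CCAAT, 9 bases of any kind and CCACG. It was searched on both strands from 250 bases before to 50 bases after each gene's start in RefSeq's GRCm38.p6 promoters. It was found in 7 of the 22 ER chaperone genes with a promoter in the table (31.8%), in 14 of 9316 tested genes (0.15%), in 10 of 2613 genes called lower (0.38%) and in 0 of 2589 called higher. The list is built from genes known for this response, so its share describes the list. The windows below are shown because the genes fell with sitagliptin. Each is written 5′ to 3′ along the gene's strand, with the 2 ends of the element in capitals, and CGTGG with ATTGG is the element read on the opposite strand:
Hspa5, chr2:34772015-34772053, plus strand: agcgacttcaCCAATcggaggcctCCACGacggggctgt
Pdia6, chr12:17266481-17266519, plus strand: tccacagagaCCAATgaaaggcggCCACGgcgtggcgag
Hsp90b1, chr10:86705523-86705561, minus strand: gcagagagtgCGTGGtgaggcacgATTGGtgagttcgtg
Hsp90b1, chr10:86705628-86705666, minus strand: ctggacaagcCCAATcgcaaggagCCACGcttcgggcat
Calr, chr8:84847065-84847103, minus strand: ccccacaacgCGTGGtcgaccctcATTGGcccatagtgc
Creld2, chr15:88819510-88819548, plus strand: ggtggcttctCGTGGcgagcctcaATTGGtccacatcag
Dnajc3, chr14:118937817-118937855, plus strand: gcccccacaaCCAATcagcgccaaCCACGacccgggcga
Canx, chr11:50325790-50325828, minus strand: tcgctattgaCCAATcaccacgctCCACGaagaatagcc
Syvn1, chr19:6046522-6046560, plus strand: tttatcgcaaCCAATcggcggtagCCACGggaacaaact
Hspa5 carries the element 65 bases before its RefSeq start, which lies downstream of the start of the gene span given above. The log2 fold changes of the carriers ran from -0.84 for Hspa5 over -0.57 for Creld2, -0.51 for Pdia6, -0.47 for Hsp90b1, -0.45 for Calr, -0.41 for Syvn1 and -0.39 for Dnajc3 to -0.27 for Canx, whose call was lost on log2(TPM + 1) (adjusted p = 0.12).

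Housekeeping lists fell by small amounts whose calls rest on the scaling. In the list of cytosolic ribosomal proteins 0 rose and 35 fell out of 40, and 5 were not called (median log2 fold change -0.26), and 0 rose and 10 fell with library size alone. Rps6 had 59.7, 55.2 and 49.8 CPM in the HG libraries and 34.02, 37.7 and 31.5 CPM in the HG-SIG libraries (-0.68) and Rpl12 had 72.6, 73.4 and 70.6 CPM in the HG libraries and 54.8, 54.3 and 56.5 CPM in the HG-SIG libraries (-0.39). For nuclear-encoded oxidative phosphorylation genes 0 rose and 30 fell out of 43, and 13 were not called (median log2 fold change -0.18), against 2 rises and 4 falls with library size alone. Ndufs8, a complex I subunit gene, had 86.3, 90.01 and 81.4 CPM in the HG libraries and 63.8, 60.6 and 55.0 CPM in the HG-SIG libraries (-0.52). Of mitochondrially encoded genes 0 rose and 8 fell out of 13, and 5 were not called (median log2 fold change -0.21), against 1 rise and 1 fall with library size alone. The cytochrome oxidase gene mt-Co1 had 14325, 14478 and 15047 CPM in the HG libraries and 12896, 13127 and 13166 CPM in the HG-SIG libraries (-0.16 ± 0.04, adjusted p = 0.0053), and with library size alone its log2 fold change was 0.00. In ribosome biogenesis 2 rose and 30 fell out of 40, and 8 were not called (median log2 fold change -0.23) and in DNA replication 1 rose and 31 fell out of 41, and 9 were not called (median log2 fold change -0.25), against 7 rises and 15 falls and 7 rises and 19 falls with library size alone. Cdt1, which licenses replication origins, had 104, 108 and 103 CPM in the HG libraries and 62.6, 60.1 and 62.3 CPM in the HG-SIG libraries (-0.77 ± 0.04, adjusted p = 9.8e-09), and Gins1 had 36.1, 35.5 and 32.5 CPM in the HG libraries and 18.97, 18.6 and 17.96 CPM in the HG-SIG libraries (-0.91). For mitosis genes 4 rose and 16 fell out of 36, and 16 were not called (median log2 fold change -0.01), and the balance turned to 20 rises and 3 falls with library size alone. The proliferation marker gene Mki67 did not pass the test (-0.01, adjusted p = 0.90), and with library size alone it was called higher (0.15, adjusted p = 0.0497).

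**Figure D5:**
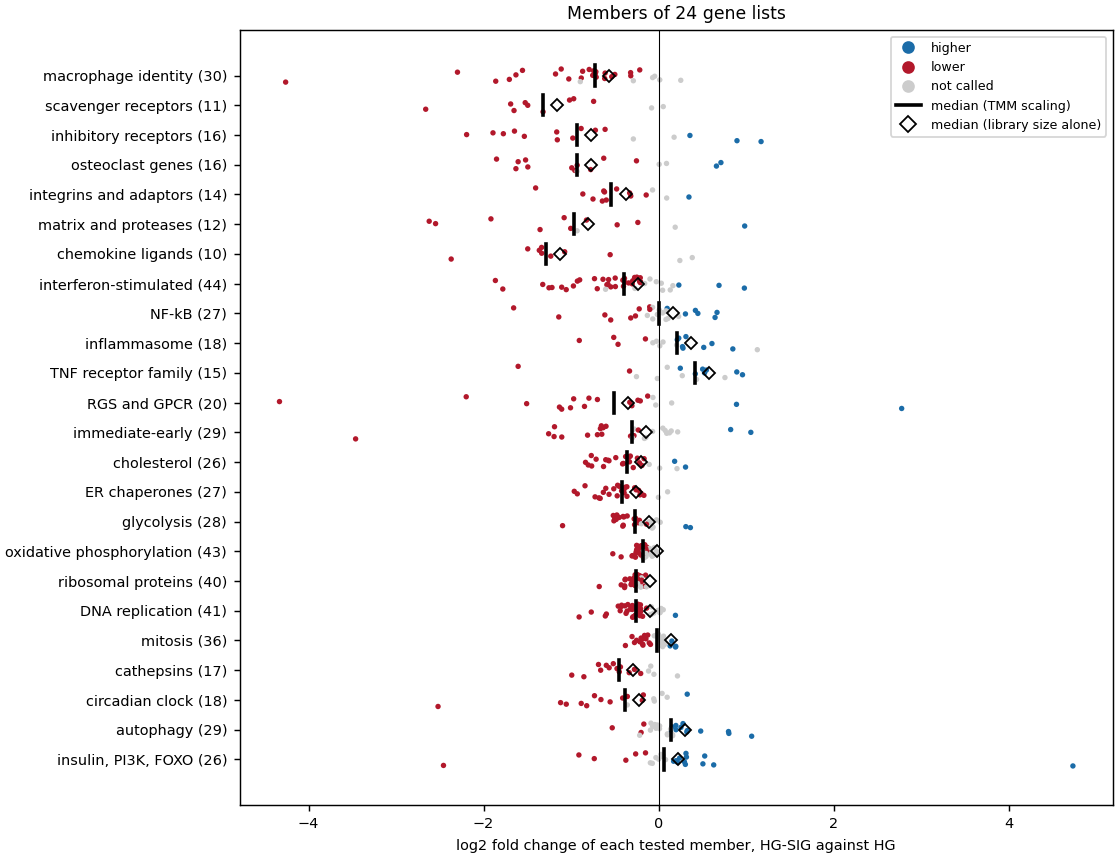
Log2 fold change of each tested member of 24 gene lists (number tested in brackets), blue where called higher, red lower and grey not called. Black bars mark list medians with TMM scaling and open diamonds medians with library size alone, which lie to the right of the bars in every list shown; the diamonds of the macrophage, chemokine, cholesterol and ER chaperone lists stay left of 0. The point at the far right is Sesn3 and that at the far left of the top row Clec4n.

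Glucose metabolism genes were mostly lower. Of transport and glycolysis genes 2 rose and 18 fell out of 28, and 8 were not called (median log2 fold change -0.27), and 3 rose and 14 fell with library size alone. Pkm, the pyruvate kinase gene, had 9329.9, 9518 and 8606 CPM in the HG libraries and 6839, 6539 and 6344 CPM in the HG-SIG libraries (-0.48 ± 0.05, adjusted p = 3.7e-06), and the lactate dehydrogenase gene Ldha had 2443, 2404 and 2355 CPM in the HG libraries and 1785, 1630.1 and 1614 CPM in the HG-SIG libraries (-0.52). The enolase genes Eno1 (-0.50) and Eno3 (-1.10) and the hexokinase gene Hk1 (-0.51) fell, and the phosphofructokinase gene Pfkm rose (0.31). The glucose transporter gene Slc2a1 (-0.08, adjusted p = 0.43) and Hk2 (-0.11, adjusted p = 0.22) did not pass the test. Without HG-SIG replicate 1 both were called lower, at -0.18 (adjusted p = 0.038) for Slc2a1 and -0.20 (adjusted p = 0.024) for Hk2. Of pentose phosphate and polyol genes 4 rose and 7 fell out of 14, and 3 were not called (median log2 fold change -0.18), against 5 rises and 5 falls with library size alone. Akr1b8, an aldose reductase family gene, had 161, 162 and 161 CPM in NC, 119.1, 133 and 113 CPM in HG and 48.4, 53.4 and 47.4 CPM in HG-SIG (-1.29 ± 0.06, adjusted p = 3.3e-09), the transaldolase gene Taldo1 fell by 0.55 and the sedoheptulose kinase gene Shpk rose by 0.77. Of genes of the tricarboxylic acid cycle 3 rose and 15 fell out of 27, and 9 were not called (median log2 fold change -0.17), against 11 rises and 7 falls with library size alone. Acod1, which makes itaconate, had 54.1, 55.7 and 56.3 CPM in NC, 4.63, 3.18 and 3.25 CPM in HG and 1.07, 1.06 and 1.49 CPM in HG-SIG (-1.62 ± 0.18, adjusted p = 8.9e-06). Among glucose-sensing factors and arrestin-domain genes 0 rose and 1 fell out of 8, and 7 were not called (median log2 fold change 0.04), against 5 rises and 1 fall with library size alone. Txnip, a gene that responds to glucose, had 243, 248 and 294 CPM in NC, 319, 321 and 378 CPM in HG and 328, 345 and 397 CPM in HG-SIG (0.07 ± 0.09, adjusted p = 0.51). The HG and HG-SIG libraries overlapped, and the NC libraries lay below both. It passed with library size alone (0.23, adjusted p = 0.039) and with the replicate block (0.07, adjusted p = 0.045). Klf10 was the member that fell (-0.65).

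Stress and amino acid genes were split. For ATF4 and the integrated stress response 10 rose and 7 fell out of 28, and 11 were not called (median log2 fold change 0.02). Atf4 itself had 213, 212 and 203 CPM in the HG libraries and 157, 153 and 159 CPM in the HG-SIG libraries (-0.42 ± 0.04, adjusted p = 2.0e-06), and the cystine transporter gene Slc7a11 had 43.9, 44.7 and 47.9 CPM in NC, 21.9, 26.995 and 24.5 CPM in HG and 9.03, 9.89 and 11.2 CPM in HG-SIG (-1.28 ± 0.09, adjusted p = 1.6e-07). Sesn2, a leucine sensor gene, had 14.9, 11.1 and 13.9 CPM in NC, 4.49, 4.75 and 4.84 CPM in HG and 9.91, 9.41 and 9.43 CPM in HG-SIG (1.03 ± 0.11, adjusted p = 7.7e-06), HG being the lowest group. The transaminase gene Gpt2 (0.68) and the asparagine synthetase gene Asns (0.32) rose, and Psat1 fell (-0.40). Counts of rises and falls were 6 and 7 of 24 (median 0.01) for amino acid transporters, 5 and 9 of 22 (median -0.07) for tRNA synthetases and 2 and 9 of 14 (median -0.21) for polyamine genes. Library size alone gave 15 and 5 for the transporters, 11 and 1 for the synthetases and 3 and 5 for polyamine genes. Odc1, the first enzyme gene of polyamine synthesis, had 1013, 1024 and 1015 CPM in NC, 366, 360.1 and 364 CPM in HG and 239.7, 247 and 241 CPM in HG-SIG (-0.58 ± 0.03, adjusted p = 1.6e-08). For the osmotic response around NFAT5 they were 6 and 7 of 17 (median -0.03), or 8 and 6 with library size alone. The inositol transporter gene Slc5a3 had 142, 152 and 150.4 CPM in NC, 314, 417 and 389 CPM in HG and 152, 192 and 197 CPM in HG-SIG (-1.05 ± 0.10, adjusted p = 3.5e-06), so that it was high in HG alone. The water channel gene Aqp1 had 4.42, 4.20 and 4.003 CPM in the HG libraries and 0.284, 0.418 and 0.447 CPM in the HG-SIG libraries (-3.44). For HIF-1 factors and targets the counts were 7 and 9 of 27 (median 0.01), and for heat shock genes 6 and 6 of 20 (median 0.03), against 10 and 7 and 12 and 2 with library size alone, with Hspa4l rising (0.63) and Hspa8 falling (-0.23), a call lost with library size alone (adjusted p = 0.16).

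Oxidase and cathepsin genes were lower, and autophagy genes more often higher. Of the phagocyte NADPH oxidase, which makes superoxide, 0 rose and 7 fell out of 8, and 1 was not called (median log2 fold change -0.32). Its catalytic subunit gene Cybb had 797, 753 and 773 CPM in NC, 519, 525 and 552 CPM in HG and 287, 295 and 292 CPM in HG-SIG (-0.87 ± 0.04, adjusted p = 2.0e-09), and Ncf1 (-0.66) and Cyba (-0.56) fell. Of NRF2 and thioredoxin system genes 6 rose and 16 fell out of 30, and 8 were not called (median log2 fold change -0.19), against 9 rises and 10 falls with library size alone. The heme oxygenase gene Hmox1 had 114, 112 and 106 CPM in the HG libraries and 68.9, 59.0 and 59.2 CPM in the HG-SIG libraries (-0.83), Gpx1 fell (-0.67) and the catalase gene Cat rose (0.28). Of the cathepsins and related proteases 0 rose and 13 fell out of 17, and 4 were not called (median log2 fold change -0.45), and Ctsd had 769.5, 767 and 709 CPM in the HG libraries and 499, 489 and 496 CPM in the HG-SIG libraries (-0.60). In the wider lysosome list 7 rose and 15 fell out of 33, and 11 were not called (median log2 fold change -0.09), against 15 rises and 10 falls with library size alone. Tfeb, the transcription factor gene of lysosome formation, fell (-0.74), and the cystine exporter gene Ctns (0.73) and the sphingomyelinase gene Smpd1 (0.51) rose. Rises and falls for the lysosomal proton pump were 2 and 10 of 17 (median -0.21), or 5 and 4 with library size alone. Of autophagy genes 12 rose and 3 fell out of 29, and 14 were not called (median log2 fold change 0.14), a share of rises of 41.4% beside the background of 25.7%, and 22 rose and 1 fell with library size alone. The initiating kinase genes Ulk1 and Ulk2 rose, Ulk2 from 25.2, 26.3 and 26.6 to 45.4, 45.2 and 45.2 CPM (0.80 ± 0.04, adjusted p = 1.3e-08) and Ulk1 by 0.80 on the log2 scale, while Atg13, which encodes a partner of these kinases, had 68.9, 69.6 and 69.9 CPM in the HG libraries and 49.6, 48.7 and 46.02 CPM in the HG-SIG libraries (-0.53 ± 0.04, adjusted p = 2.2e-07).

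Nuclear receptors, insulin signalling and the clock gave further contrasts. In the insulin, PI3K, AKT and FOXO list 12 rose and 6 fell out of 26, and 8 were not called (median log2 fold change 0.07), a share of rises of 46.2%. The rises include Sesn3, which passed the count filter through HG-SIG alone. Foxo1 had 8.81, 10.2 and 10.6 CPM in the HG libraries and 14.7, 14.999 and 15.8 CPM in the HG-SIG libraries (0.63 ± 0.08, adjusted p = 4.3e-05), and the insulin receptor gene Insr had 20.5, 19.2 and 24.3 CPM in the HG libraries and 30.7, 28.6 and 31.3 CPM in the HG-SIG libraries (0.51 ± 0.08, adjusted p = 0.00014). The growth factor gene Igf1 had 13.5, 12.01 and 14.8 CPM in NC, 12.4, 12.7 and 12.3 CPM in HG and 2.18, 2.60 and 2.03 CPM in HG-SIG (-2.46 ± 0.11, adjusted p = 2.3e-09), and Pik3r5 fell (-0.91). Of nuclear receptors and coregulators 10 rose and 7 fell out of 26, and 9 were not called (median log2 fold change 0.09), against 14 rises and 4 falls with library size alone. Beside Ppard, the vitamin D receptor gene Vdr rose from 29 to 136 counts (ratio of HG-SIG over HG 3.74, interval 2.49 to 5.80), and the retinoic acid receptor gene Rarb fell (-1.15). With 15 counts in NC, Vdr may have passed the count filter through HG-SIG alone. Of clock genes 1 rose and 12 fell out of 18, and 5 were not called (median log2 fold change -0.38), against 3 rises and 10 falls with library size alone. Arntl, which encodes the core activator BMAL1, had 24.96, 25.98 and 24.3 CPM in the HG libraries and 17.4, 15.7 and 14.6 CPM in the HG-SIG libraries (-0.66), the output gene Dbp fell by 0.88, Ciart by 1.12 and Bhlhe40 by 0.73, while Clock rose (0.33). Among p53 targets 10 rose and 8 fell out of 26, and 8 were not called (median log2 fold change 0.03), against 12 rises and 4 falls with library size alone, with Ccng1 (0.53), Btg2 and Trp53inp1 (1.87) rising and Sesn1 (-0.74) and Bax (-0.37) falling. Among linker and variant histones 6 rose and 4 fell out of 15, and 5 were not called (median log2 fold change 0.02), against 6 rises and 1 fall with library size alone. H1f0, a linker histone gene of resting cells, had 200.2, 199 and 200.1 CPM in NC, 286, 291 and 284 CPM in HG and 412, 407 and 420.4 CPM in HG-SIG (0.53 ± 0.03, adjusted p = 4.0e-08).

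Among relatives of the drug's target, those that passed the test had log2 fold changes between -0.23 and 0.19. Of dipeptidyl and prolyl peptidases 3 rose and 2 fell out of 8, and 3 were not called (median log2 fold change 0.08), against 5 rises and 0 falls with library size alone. Dpp8 had 242, 251 and 263 CPM in the HG libraries and 265, 271 and 266 CPM in the HG-SIG libraries (0.09 ± 0.04, adjusted p = 0.076) and Dpp9 had 85.96, 81.1 and 83.8 CPM in the HG libraries and 90.9, 85.8 and 88.8 CPM in the HG-SIG libraries (0.08 ± 0.04, adjusted p = 0.10), and neither passed the test. Both passed with library size alone (0.25, adjusted p = 0.00011, and 0.24, adjusted p = 0.00028), Dpp8 also without HG replicate 3 (0.12, adjusted p = 0.015) and with the replicate block (0.09, adjusted p = 0.031). Dpp10, at a low level, had the lowest log2 fold change of the list, from 0.435 ± 0.111 to 0.271 ± 0.0442 CPM (SD, n = 3), and did not pass the test (-0.69, adjusted p = 0.15). Dpp3 (0.18), Prepl (0.19) and Prcp (0.10) rose, and the prolyl endopeptidase gene Prep (-0.23) and Dpp7 (-0.20) fell, Prep not with library size alone (adjusted p = 0.093). The call of Prcp was lost in 9 of the 13 alternatives, and that of Dpp7 in several, 3 of them leaving out 1 library: HG replicate 3 (adjusted p = 0.11) and HG-SIG replicates 1 (0.13) and 2 (0.059).

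The remaining lists gave rises and falls of 4 and 11 of 26 (median -0.08) for cytokine receptors, where the receptor genes Il18rap (-1.18) and Il1rl1 (-1.15) fell and Ifngr1 rose (0.35). They were 8 and 11 of 25 (median -0.07) for the TGF-beta pathway (11 and 8 with library size alone), with Tgfbr2 falling (-0.77) and Smurf2 rising (0.37), and 9 and 6 of 25 (median 0.04) for MAP kinases, (16 and 3 with library size alone), with Braf rising (0.50). Costimulatory and adhesion ligands had 5 and 3 of 15 (median 0.11) (6 and 1 with library size alone), and Cd274, which encodes PD-L1, rose from 55 to 184 counts (ratio of HG-SIG over HG 2.67, interval 1.97 to 3.68). Further counts were 5 and 7 of 17 (median -0.22) for the BCL2 family, 5 and 6 of 22 (median -0.03) for iron and heme genes, 2 and 14 of 31 (median -0.09) for the proteasome, 0 and 12 of 32 (median -0.11) for mitochondrial ribosomal proteins, 4 and 2 of 11 (median -0.01) for arginine and nitric oxide genes and 7 and 10 of 27 (median -0.01) for mRNA decay. These became, with library size alone, 6 and 6 for the BCL2 family, 8 and 4 for iron and heme, 11 and 0 for the proteasome, 7 and 3 for mitochondrial ribosomal proteins, 7 and 2 for arginine and nitric oxide genes and 15 and 3 for mRNA decay. Of long noncoding RNAs 1 rose and 11 fell out of 16, and 4 were not called (median log2 fold change -0.28), against 2 rises and 1 fall with library size alone. Neat1, which builds paraspeckles in the nucleus, had 787, 662 and 685 CPM in NC, 554, 508 and 497 CPM in HG and 263, 273 and 258 CPM in HG-SIG (-0.97 ± 0.06, adjusted p = 6.9e-08), while Malat1 did not pass the test (0.16, adjusted p = 0.55) and ranged from 462 to 851 CPM over the HG libraries. Malat1 passed without HG replicate 3 (0.43, adjusted p = 0.0495) and with the replicate block (0.18, adjusted p = 0.046). Of the fibroblast markers, Acta2 fell from 26 to 14 counts (ratio of HG over HG-SIG 2.33, interval 1.17 to 4.82). Its call was lost with DESeq2 (adjusted p = 0.109) and with no filter on low counts (0.0725). It was also lost without HG replicate 2 (adjusted p = 0.096) or 3 (0.063) and without HG-SIG replicate 1 (0.11) or 3 (0.068). Of the dendritic cell markers Itgax fell (-0.64) and Zbtb46 rose (1.08).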

How the data were processed

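RNA of RAW264.7 cells was sequenced in 9 libraries. The deposited table holds a read count per gene and library. Bowtie2 2.3.5, RSEM and the mm10 build are named in the submitters' processing notes; no source used here gives rounding, strand setting or annotation version. Symbols, types and positions came from GENCODE M21 (GRCm38), which held 18591 of 18631 Ensembl genes. Of the genes named by rule, 47 share over 10% of their exonic length with another gene, so their counts may be mixed. Counts were tested with edgeR 4.0.16 (R 4.3.3): TMM scaling, filterByExpr by group, 1 quasi-likelihood model over the 3 groups, Benjamini-Hochberg adjustment over 13311 features and a call at an adjusted p under 0.05. CPM values are TMM-scaled. Library totals were 23285821 to 31571578 counts.

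The genes named are the 12 highest and 12 lowest log2 fold changes (called, mean of at least 2 on the log2 CPM scale, libraries not overlapping, no provisional name), the 6 most abundant over 1 in each direction, per list the 5 called members with the smallest p and 2 of the other direction, and a short fixed set; some are not reported here. Others, given as further examples, were added after their values were seen. Members and lists were chosen with earlier results of these data known. Alternatives were DESeq2 1.42.0, library size alone, no filter, the 6 libraries only, limma-voom and log2(TPM + 1) with limma 3.58.1 (TPM computed here from the counts and annotated exon lengths), a replicate block and leaving out each library.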

Additional observations from a re-analysis of the deposited data

Results flagged for a closer look

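The unannotated loci of the table, which lie outside the genes described above, were called less often than all features. Of 1186 that passed the count filter, 367 were called in HG-SIG against HG with edgeR's quasi-likelihood test (30.9%, against 52.5% of all features). Of these loci 132 were higher (11.1%) and 235 lower (19.8%). They have no gene name or position in the files, and took 5.85% to 6.13% of the counts in the 6 libraries. The one with the deepest fall had 9.27 ± 0.943 CPM in the HG libraries and 0.176 ± 0.0146 CPM in the HG-SIG libraries (SD, n = 3), a log2 fold change of -5.68 with a standard error of 0.20.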

How the results depend on the processing

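Of 13 alternatives, those of scaling moved the split between rises and falls most. With library size alone 6093 features rose and 1826 fell. With limma on log2(TPM + 1) 6628 rose and 1467 fell, of which 212 were over 1 on the log2 scale. That fit tested only the 12109 features with an annotated exon length, against 13311 in the main test. Its fold changes include the added 1, so the 212 are not on the same measure as the 706 of the main test. DESeq2 gave 2898 rises and 3426 falls. Leaving out 1 library gave 6193 to 7147 calls in all (2962 to 3557 rises, 3194 to 3590 falls), 683 to 776 of them over 1, and 924 to 1043 called members of the gene lists. These fits tested 13454 to 13545 features. Deviations of HG and HG-SIG libraries of the same number correlated at 0.045, 0.031 and 0.099. Those of libraries of different numbers correlated at -0.077 to 0.041. Whether the replicate number pairs the libraries was not tested. With the replicate number as a block 3715 features rose and 3848 fell, and of the genes named Dpp8 (0.09, adjusted p = 0.031), Ero1l (0.10, adjusted p = 0.041), Malat1 (0.18, adjusted p = 0.046) and Txnip (0.07, adjusted p = 0.045) gained a call. Of the 286 genes named, 32 changed call or sign under at least 1 alternative. For 3 genes that had passed the test the sign turned on log2(TPM + 1), to 0.0020 for Dpp7, 0.0406 for Tgfb1 and 0.0430 for mt-Co1, none of them called. The other genes whose sign turned had not passed the test. With library size alone and on log2(TPM + 1) the values were 0.1367 and 0.1823 for Casp1, 0.0926 and 0.1374 for Cebpa, 0.0489 and 0.0891 for Hk2, 0.1501 and 0.1992 for Mki67, 0.1586 and 0.1929 for Pdia5 and 0.0828 and 0.1204 for Slc2a1. Of these Casp1, Mki67 and Pdia5 were called higher under both, and Cebpa on log2(TPM + 1). Nfkbia was at -0.0003 with DESeq2. Leaving out 1 library gave a range of -0.0599 to 0.0265 for Casp1, -0.0407 to 0.0577 for Csf2rb, -0.0293 to 0.4302 for Malat1, -0.0888 to 0.0740 for Mki67, -0.0174 to 0.0284 for Nfkbia, -0.0338 to 0.0508 for Pdia5, -0.1831 to 0.0025 for Slc2a1 and -0.0112 to 0.1608 for Txnip. The causes of these differences beyond the change of scaling or of libraries were not tested. Counts limit the low genes: 3 counts correspond to 0.0976 to 0.129 CPM in an HG or HG-SIG library before TMM.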

Other observations

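Gene types gave a further contrast that the lists do not cover. Of 45 long noncoding RNAs annotated as sharing a bidirectional promoter, 19 rose (42.2%) and 2 fell (4.4%), with a median log2 fold change of 0.55. Of 289 intergenic long noncoding RNAs 38 rose and 51 fell, and of 292 antisense genes 31 rose and 36 fell. For the antisense type, reads of the opposite gene cannot be told apart, since the labels do not give a strand setting. Protein-coding genes were even, with 3152 rises and 3202 falls among 11246.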
